A study of Rattus norvegicus with 6 samples.

Results

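Glycosaminoglycans are the long sulfated sugar chains that proteoglycans carry, and 38 genes that build, sulfate or supply them were examined in rat chondrocytes treated with retinoic acid (RA). The genes were chosen by symbol, from the linkage of the chain to its core protein to the supply of sulfate and UDP-sugars, and all 38 were found among the 18923 genes of the deposited tables. Primary chondrocytes were isolated from the cartilage of newborn female Sprague-Dawley rats of wild type (WT) genotype and used at an early passage. The 3 CON samples were kept for 24 h in high-glucose DMEM with FBS and penicillin-streptomycin, and the 3 RA samples in the same medium with 1 µM all-trans RA added. The labels name no vehicle for CON. The methods of the study call the samples of a group independent biological replicates, without saying whether each came from its own animal or culture, and p-values measure the spread between these samples.

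Cartilage owes its swelling pressure to chondroitin sulfate, most of it on aggrecan, whose sulfate groups hold water in the tissue. A chain is begun by a tetrasaccharide linker on a serine of the core protein. From there it becomes chondroitin or dermatan sulfate, or heparan sulfate, depending on the next sugar added. All of these chains draw sulfate from the same activated donor, PAPS, and sugars from the same UDP-sugar pools, while heparan sulfate chains bind growth factors and morphogens at the cell surface and in the growth plate.

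Poly(A) RNA was sequenced, and reads counted per gene summed to between 30170909 and 38007486 in CON and between 29370025 and 30952882 in RA. The known retinoid response gene Cyp26b1, which encodes an RA-degrading hydroxylase, was at 1.35, 1.71 and 1.46 FPKM in CON and 9.51, 8.61 and 10.4 FPKM in RA. All 9 chondrocyte markers were detected, with Col2a1 at a mean of 5420.07 FPKM in CON. CON sample 1 stood apart from the other CON samples. Its log2 expression correlated with theirs at r = 0.983 and 0.985 across the genes tested, against 0.992 between CON samples 2 and 3. Each pair of RA samples correlated at r = 0.991. The summed FPKM of 9 chondrocyte markers ran from 7871 to 9779.97 in CON and from 4977 to 5302 in RA, with all 9 markers lower in RA. Summed macrophage markers (7 genes) lay between 13.8 and 15 FPKM in CON and between 16.3 and 17.8 in RA, most of it Cd14, and Ptprc, Adgre1 and C1qa were each at a mean below 0.1 FPKM in both groups. Summed skeletal muscle markers (5 of 6 genes in the tables) lay at 4.59 to 5.72 and 6.8 to 7.57 FPKM, nearly all of it Des (log2 fold change 0.39, adjusted p = 0.0766), with Myh3, Actn2 and Ckm near 0. Within this list Myod1 passed as higher in RA, with 7, 4 and 7 reads in CON and 25, 22 and 17 in RA (log2 fold change 1.93, adjusted p = 0.0142). Its CON counts lay below the filter's minimum count of 10, so Myod1 entered the test through its RA samples. Fibroblast and perichondrium markers (6 of 7) summed to 3721 to 4912 FPKM in CON and 4806 to 5060.2 in RA, and osteoblast markers (5) to 8.2 to 9.47 and 8.19 to 8.45 FPKM. Members of both lists passed in opposite directions. Pdgfra was higher (0.44) and Postn lower (-1.28) among the former, and Ibsp was higher (1.47) and Alpl lower (-0.42 on the log2 scale) among the latter. Endothelial markers (4 of 5) reached at most 0.214 FPKM in any sample. The part of these marker levels in the results below was not tested. In bulk RNA, fewer cells of a type and less RNA per cell cannot be told apart.

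Promoter sequences are shown for the sulfate transporter gene Slc26a2 and the PAPS synthase gene Papss2, both lower in RA, for Hs6st2, which was lower and was the 1 with an AGGTCA motif among the 11 promoters matched for genes lower in RA, and for Hs3st1, which had the largest rise. Each is the 250 bases before the RefSeq start of the gene (GRCr8 build, 5′ to 3′ on the strand of the gene). Capitals mark AGGTCA, the core motif to which RA receptors bind, GGGCGG, the GC box, and TATAAA, the TATA box, on either strand. No motif overlapped another in these sequences.
Slc26a2, chr18:56937013-56937262, - strand: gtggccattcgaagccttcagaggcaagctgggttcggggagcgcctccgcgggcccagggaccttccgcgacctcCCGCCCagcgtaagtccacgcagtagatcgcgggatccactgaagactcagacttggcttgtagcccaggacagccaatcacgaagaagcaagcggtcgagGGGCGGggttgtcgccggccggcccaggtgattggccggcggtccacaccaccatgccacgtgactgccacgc
Papss2, chr1:239867463-239867712, + strand: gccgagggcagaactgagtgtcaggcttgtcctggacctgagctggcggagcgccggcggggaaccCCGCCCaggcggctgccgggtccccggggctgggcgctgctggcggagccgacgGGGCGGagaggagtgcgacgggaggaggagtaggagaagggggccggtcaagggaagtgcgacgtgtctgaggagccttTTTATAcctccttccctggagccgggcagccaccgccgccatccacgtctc
Hs6st2, chrX:136182155-136182404, - strand: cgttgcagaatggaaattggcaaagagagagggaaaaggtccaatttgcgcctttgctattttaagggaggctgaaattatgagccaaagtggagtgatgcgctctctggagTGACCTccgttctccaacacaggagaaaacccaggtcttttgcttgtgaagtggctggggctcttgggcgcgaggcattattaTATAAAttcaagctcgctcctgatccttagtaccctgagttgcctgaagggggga
Hs3st1, chr14:75398723-75398972, + strand: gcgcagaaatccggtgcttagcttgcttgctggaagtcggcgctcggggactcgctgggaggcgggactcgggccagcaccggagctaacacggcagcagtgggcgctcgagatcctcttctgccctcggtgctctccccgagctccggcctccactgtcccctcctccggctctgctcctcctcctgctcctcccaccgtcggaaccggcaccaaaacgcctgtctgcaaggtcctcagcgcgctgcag
Promoters of 31 of the 38 genes were matched by symbol. A GC box stood in 19 of the 31, or 61.3%, against 32.4% of all 27457 rat promoters of this length, and the median GC content was 66.4% against 52.0%. The GC box was present in 7 of 11 promoters of genes lower in RA, in 0 of 3 of genes higher in RA, and in 12 of 17 of the remaining genes. AGGTCA was found in 2 of the 31 (Hs6st2 and Ndst1, 6.45%) against 13.7% of all promoters, TATAAA in 2 (Papss2 and Hs6st2, 6.45%) against 13.1%, and the SOX family core motif AACAAT in 0 of the 31 against 10.3%. These matches are letters in a window and not evidence of binding.

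Genes that passed as lower in RA were all 6 sulfate and UDP-sugar supply genes, Xylt1 of the linker, 3 chondroitin chain genes, the chondroitin sulfotransferase gene Chst11 and the heparan sulfotransferase gene Hs6st2. Those that passed as higher were Chst15, which serves chondroitin, and the heparan genes Extl3, Hs3st1 and Sulf2. Of the 38 genes, 37 had counts high enough for testing, and 16 of these 37 passed the test, defined as a Benjamini-Hochberg adjusted p below 0.05 over all genes in edgeR's quasi-likelihood test. Of all 13438 genes tested, 9.82% passed, or 1319 genes. This number moved with the samples used. It was 2242, 721 and 1316 without CON sample 1, 2 or 3, and 693, 680 and 657 without RA sample 1, 2 or 3. Lower in RA were 12 of the 37, where 4.50% of all genes were called lower, and higher in RA were 4 of the 37, where 5.31% of all genes were called higher. These genes were expressed above the common level, with a median of 23.2 FPKM against 8.4 over all genes tested. Among the 11390 genes with at least 1 FPKM in 3 samples, 10.4% passed, and of the 35 members among them 15 did so. DEGs, which also differed by more than 0.58 on the log2 scale, numbered 10 of 37 (4.96% of all genes), of which 8 were lower (2.29% of all genes) and 2 higher (2.67% of all genes). FPKM values of the groups did not overlap for 15 genes that were lower and 8 that were higher in RA, against 13.3% and 18.9% of all genes, and they overlapped for 14. The median log2 fold change was -0.04 over the 37 genes and -0.0057 over all genes tested. In fits without 1 of the samples, 12 of the 16 passed in each of the 6. Chsy1, Chsy3, Ugdh and Ugp2 did not.

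**Figure D1:**
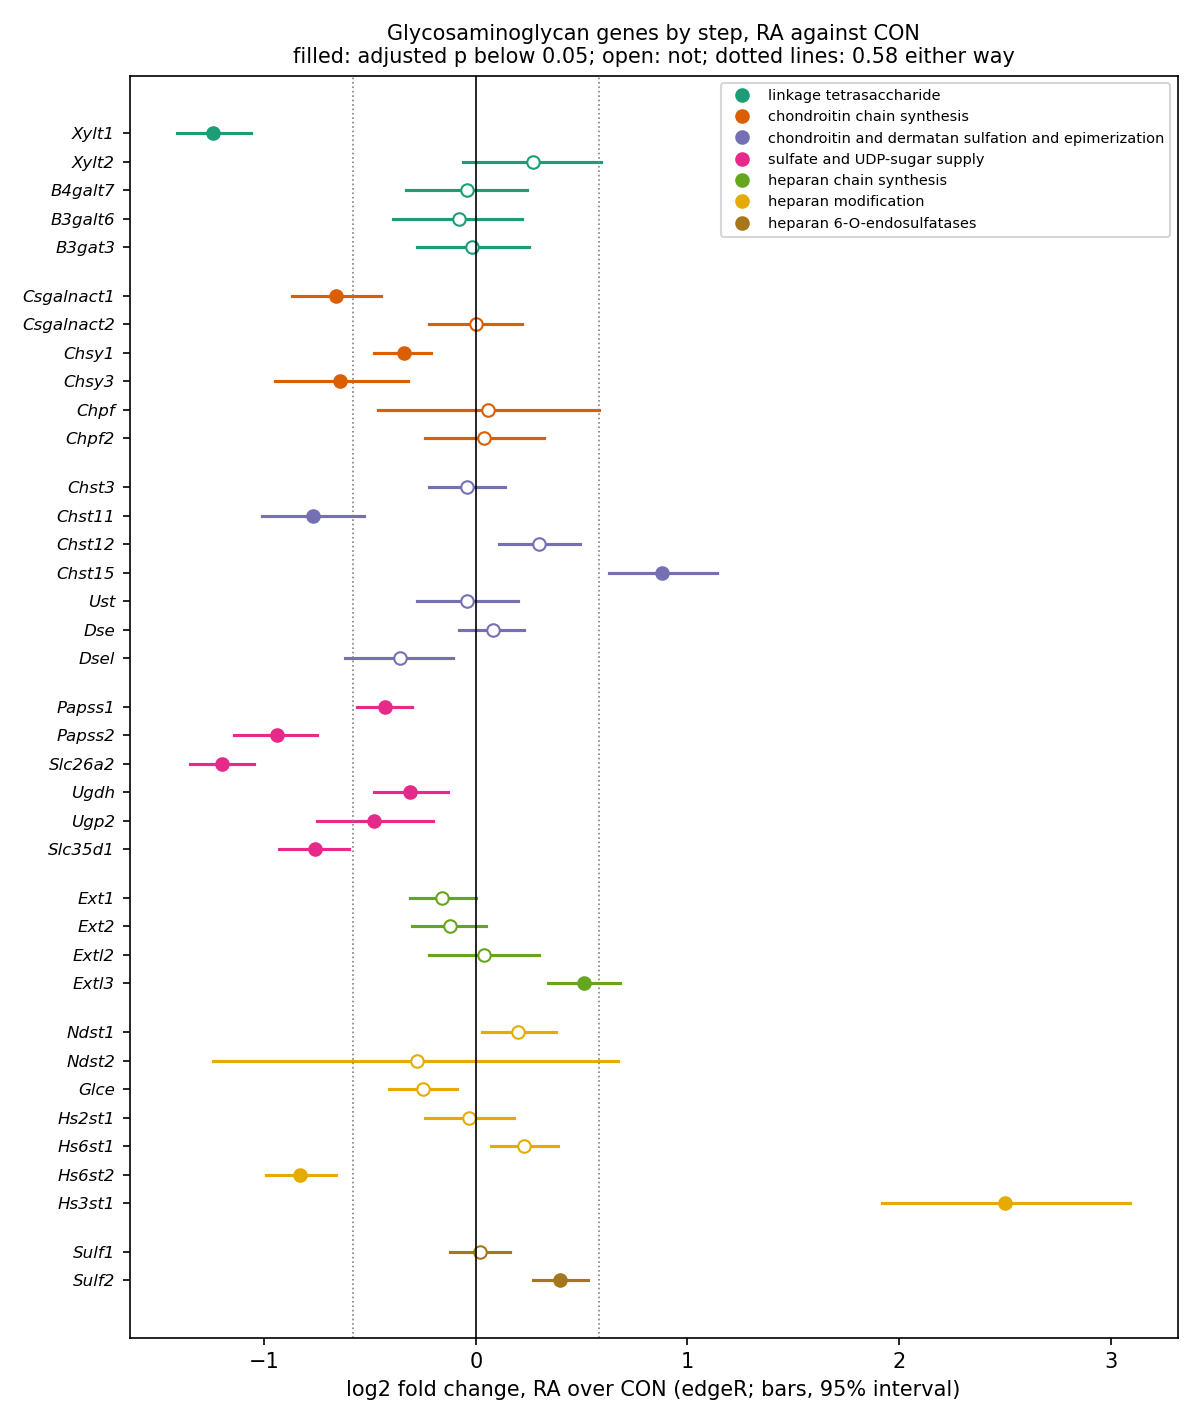
Log2 fold change of the 37 tested genes (x axis, RA over CON, edgeR) with its 95% interval, ordered by step of the pathway. Filled points had an adjusted p below 0.05. All 6 supply genes lie left of 0, and Hs3st1 lies farthest right at 2.50.

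The supply genes were the only step in which every member passed the test. All 6 were lower in RA, where 4.50% of all genes were called lower. Together their FPKM summed to between 329.6 and 393 in CON and between 227 and 241 in RA, 0.651 times the CON mean. Summed chondrocyte markers were at 0.572 times the CON mean in the same samples. Most of that sum was Col2a1, and the single markers ran from 0.319 (Matn3) to 0.712 (Sox9) times the CON level. The part of these markers in this result was not tested. Slc26a2 (ENSRNOG00000018082) encodes the plasma membrane sulfate transporter whose loss causes diastrophic dysplasia. It was at 40.9, 39.8 and 36.5 FPKM in CON samples 1, 2 and 3 and at 16.5, 17.3 and 17.7 FPKM in RA samples 1, 2 and 3. Every RA sample lay below every CON sample, and the log2 fold change was -1.20, with a standard error of 0.0666 (adjusted p = 3.48e-05, edgeR), or 0.436 times the CON level. The PAPS synthases turn this sulfate into the activated donor. Papss2 (ENSRNOG00000011068), the form that cartilage depends on, was at 100.1, 87.3 and 79.3 FPKM in CON and at 48.2, 47.3 and 44.5 FPKM in RA, giving a log2 fold change of -0.94 with a standard error of 0.0848 (adjusted p = 3.01e-04). Papss1 was at 64, 66.6 and 67.6 FPKM in CON and at 48.9, 50 and 49.9 FPKM in RA, giving a log2 fold change of -0.43 with a standard error of 0.0571 (adjusted p = 0.00243). The spread within each group was small beside the difference for both genes. Papss2 was above Papss1 in each CON sample and below it in each RA sample, and made up 57.2 ± 3.53% of their summed FPKM in CON against 48.5 ± 1.26% in the RA group (SD, n = 3 each).

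Among the UDP-sugar genes, Slc35d1 had the largest change. It encodes the transporter that carries UDP-glucuronic acid and UDP-N-acetylgalactosamine into the endoplasmic reticulum, and its loss in mice gives short cartilage with little chondroitin sulfate. Slc35d1 was at 28.3, 24.5 and 25.8 FPKM in CON and at 15.3, 15.5 and 15.8 FPKM in RA, giving a log2 fold change of -0.76 with a standard error of 0.071 (adjusted p = 3.62e-04). Ugdh, which makes UDP-glucuronic acid, was at 51.4, 45.2 and 42.7 FPKM in CON and at 39.6, 36.3 and 37.6 FPKM in RA, a log2 fold change of -0.31 (adjusted p = 0.0422). Ugp2, which makes the UDP-glucose that Ugdh uses, was at 109, 85.9 and 77.6 FPKM in CON and at 72.3, 63.6 and 61.4 FPKM in RA, a log2 fold change of -0.48 (adjusted p = 0.0418). The groups did not overlap for either gene, but CON sample 1 was the highest of all samples in both, and without it the log2 fold changes were -0.23 and -0.33. Both calls were also close to the threshold. Ugdh and Ugp2 no longer passed without CON sample 2, where they lay at -0.33 and -0.52, nor without RA sample 1 (-0.33 and -0.54), RA sample 2 (-0.28 and -0.46) or RA sample 3 (-0.30 and -0.43). Scaled by total counts alone, they had adjusted p values of 0.0587 and 0.0537 (range over all alternatives 0.00876 to 0.184 for Ugdh and 0.00209 to 0.172 for Ugp2).

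**Figure D2:**
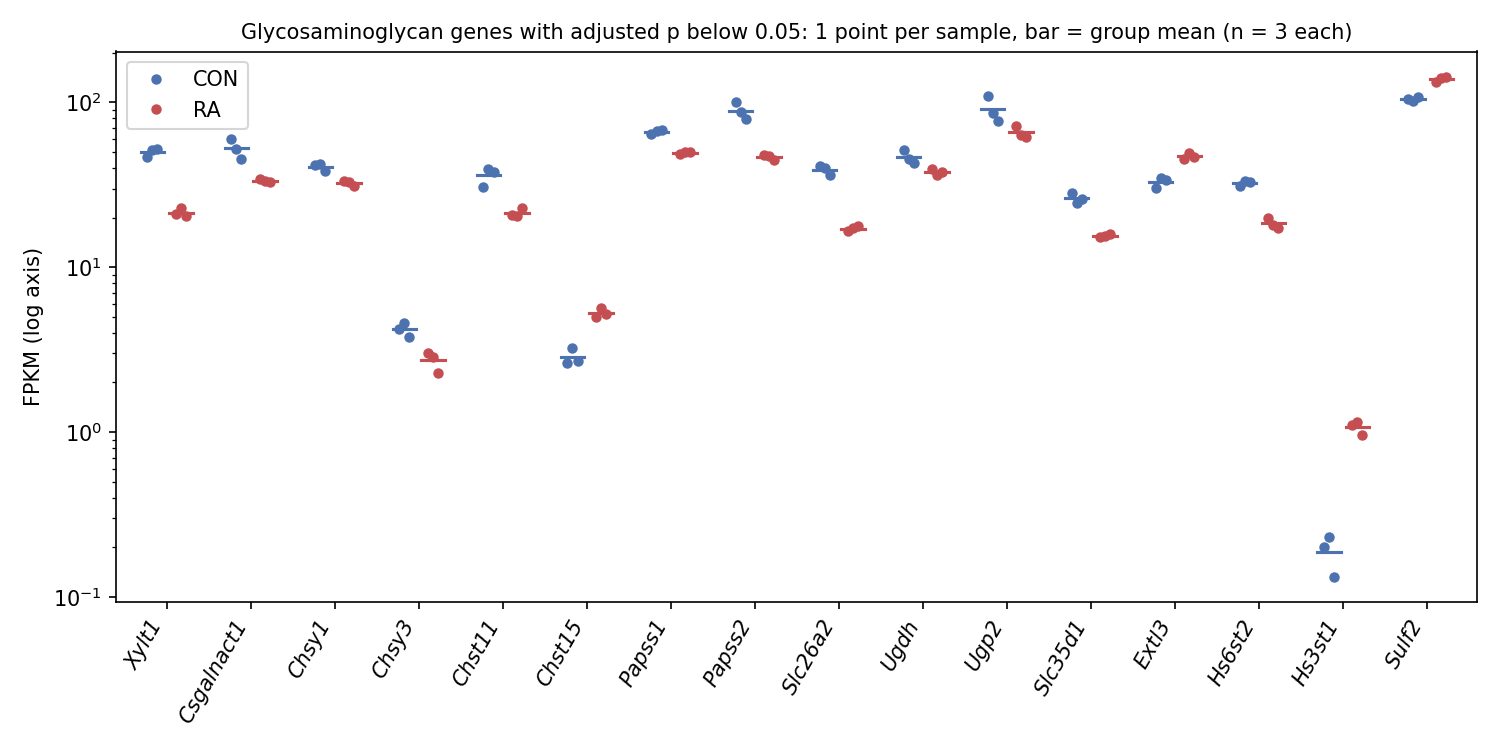
FPKM (log axis) of the 16 genes with an adjusted p below 0.05 in each of the 3 CON and 3 RA samples, with bars at the group means. No gene has overlapping groups. Sulf2 is the most abundant of them in RA, at 133 to 144 FPKM, and Hs3st1 the least, at 0.963 to 1.15 FPKM.

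Of the 5 genes of the linkage tetrasaccharide, Xylt1, which encodes a xylosyltransferase that starts the chain, passed the test, and the other 4 did not. Xylt1 (ENSRNOG00000056658) was at 46.5, 51.1 and 52.3 FPKM in CON and at 21, 22.8 and 20.3 FPKM in RA. Its log2 fold change of -1.24, with a standard error of 0.0765 (adjusted p = 5.59e-05) was the lowest of all 37 genes. Its paralog Xylt2, which has the same activity, was at 12, 17.1 and 18 FPKM in CON and at 18.1, 19.6 and 19.4 FPKM in RA, a log2 fold change of 0.27 (95% interval -0.06 to 0.59, adjusted p = 0.301). The Xylt2 groups did not overlap, with CON sample 1 farthest below RA and CON sample 3 close to it. With 1 sample left out, the Xylt2 log2 fold change ran from 0.10 to 0.39, and the gene did not pass in any of these fits. Xylt1 made up 76.3 ± 2.83% of the summed FPKM of the pair in CON against 52.9 ± 1.49% in the RA group (SD, n = 3 each), a difference of -23.4 percentage points. The genes of the next enzymes in the linker, B4galt7 and B3galt6, which add galactose, and B3gat3, which adds glucuronic acid, did not pass the test. Their log2 fold changes were -0.04 (95% interval -0.33 to 0.24), -0.08 (-0.39 to 0.22) and -0.02 (-0.28 to 0.25).

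In chondroitin chain synthesis 3 of 6 genes passed as lower in RA, where 4.50% of all genes were called lower, and none as higher. Csgalnact1 (ENSRNOG00000013024), which adds the N-acetylgalactosamine that commits a linker to chondroitin, was at 60, 52 and 45.6 FPKM in CON and at 34.4, 33.5 and 32.7 FPKM in RA, giving a log2 fold change of -0.66 with a standard error of 0.0921 (adjusted p = 0.00303). Its paralog Csgalnact2 was at 22.9, 22.1 and 19.4 FPKM in CON and at 24.7, 19.6 and 20.9 FPKM in RA, with overlapping groups and a log2 fold change of 0.00 (95% interval -0.22 to 0.22). The polymerase genes Chsy1 and Chsy3 were both lower. Chsy1 was at 41.7, 42 and 38.3 FPKM in CON and at 33.2, 32.8 and 31.1 FPKM in RA, a log2 fold change of -0.34 (adjusted p = 0.00862). The much less abundant Chsy3 was at 4.22, 4.6 and 3.76 FPKM in CON and at 3, 2.87 and 2.29 FPKM in RA, a log2 fold change of -0.64 (adjusted p = 0.0217). Chsy1 was no longer past the threshold without CON sample 2 (-0.32) or RA sample 3 (-0.32), nor was Chsy3 without CON sample 2 (-0.57) or without RA sample 1 (-0.70), 2 (-0.68) or 3 (-0.53). Adjusted p values over all alternatives ran from 4.37e-05 to 0.0643 for Chsy1 and from 7.36e-04 to 0.0941 for Chsy3.

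Chpf and Chpf2, whose products work with the synthases in the polymerase, did not pass the test. Chpf was at 32.7 FPKM in CON sample 1 but at 64.4 FPKM in each of the other CON samples, and at 53.3, 56.2 and 60 FPKM in RA. The groups overlapped, and the log2 fold change of 0.06 had a 95% interval from -0.46 to 0.58. Without CON sample 1 it was -0.20, and the gene passed the test as lower in RA (adjusted p = 0.0333, range over all alternatives 0.0333 to 0.99). Chpf2 was at 24.9, 32.8 and 35.1 FPKM in CON and at 30.3, 33.5 and 32.6 FPKM in RA, a log2 fold change of 0.04.

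The sulfation enzymes of chondroitin and dermatan did not move together. Chst11 (ENSRNOG00000008885), the chondroitin 4-O-sulfotransferase required for the growth plate, was at 30.7, 39.4 and 37.9 FPKM in CON and at 20.8, 20.4 and 22.8 FPKM in RA, giving a log2 fold change of -0.77 with a standard error of 0.103 (adjusted p = 0.00248). Chst12, which carries out the same reaction, was at 33.3, 35.6 and 39.1 FPKM in CON and at 42.8, 44.6 and 47 FPKM in RA. This was a log2 fold change of 0.30 (95% interval 0.11 to 0.49, adjusted p = 0.0558), just short of the threshold, and it passed in DESeq2 (adjusted p = 0.0186) and in 7 further alternatives (range over all alternatives 0.0153 to 0.226). The groups did not overlap for either gene, in opposite directions. Chst11 made up 49.9 ± 2.38% of the summed FPKM of the pair in CON against 32.2 ± 0.759% in the RA group (SD, n = 3 each).

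Chst15 (ENSRNOG00000016267), which adds a further sulfate to 4-O-sulfated chondroitin and so forms the disulfated E unit, rose from a low level. It was at 2.61, 3.24 and 2.69 FPKM in CON and at 5.02, 5.64 and 5.23 FPKM in RA, giving a log2 fold change of 0.88 with a standard error of 0.111 (adjusted p = 0.00176), or 1.85 times the CON level. The 6-O-sulfotransferase genes did not give a call. Chst3, the main chondroitin 6-O-sulfotransferase, lay at 5.41 ± 0.399 FPKM in CON against 5.31 ± 0.138 in the RA group (SD over 3 samples), with a log2 fold change of -0.04 (95% interval -0.22 to 0.14). Chst7, its paralog, had between 3 and 10 reads in each sample and was the member not tested. Ust, which sulfates the uronic acid, had a log2 fold change of -0.04 (95% interval -0.28 to 0.20). The epimerases that turn chondroitin into dermatan sulfate were the abundant Dse, at 0.08 (95% interval -0.08 to 0.23), and the less abundant Dsel, at -0.36 (95% interval -0.62 to -0.11, adjusted p = 0.085). Dsel passed with DESeq2 and without CON sample 3 (range over all alternatives 0.0393 to 0.272). Its groups did not overlap, at 4.53 to 6.07 FPKM in CON and 3.96 to 4.18 in RA.

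**Figure D3:**
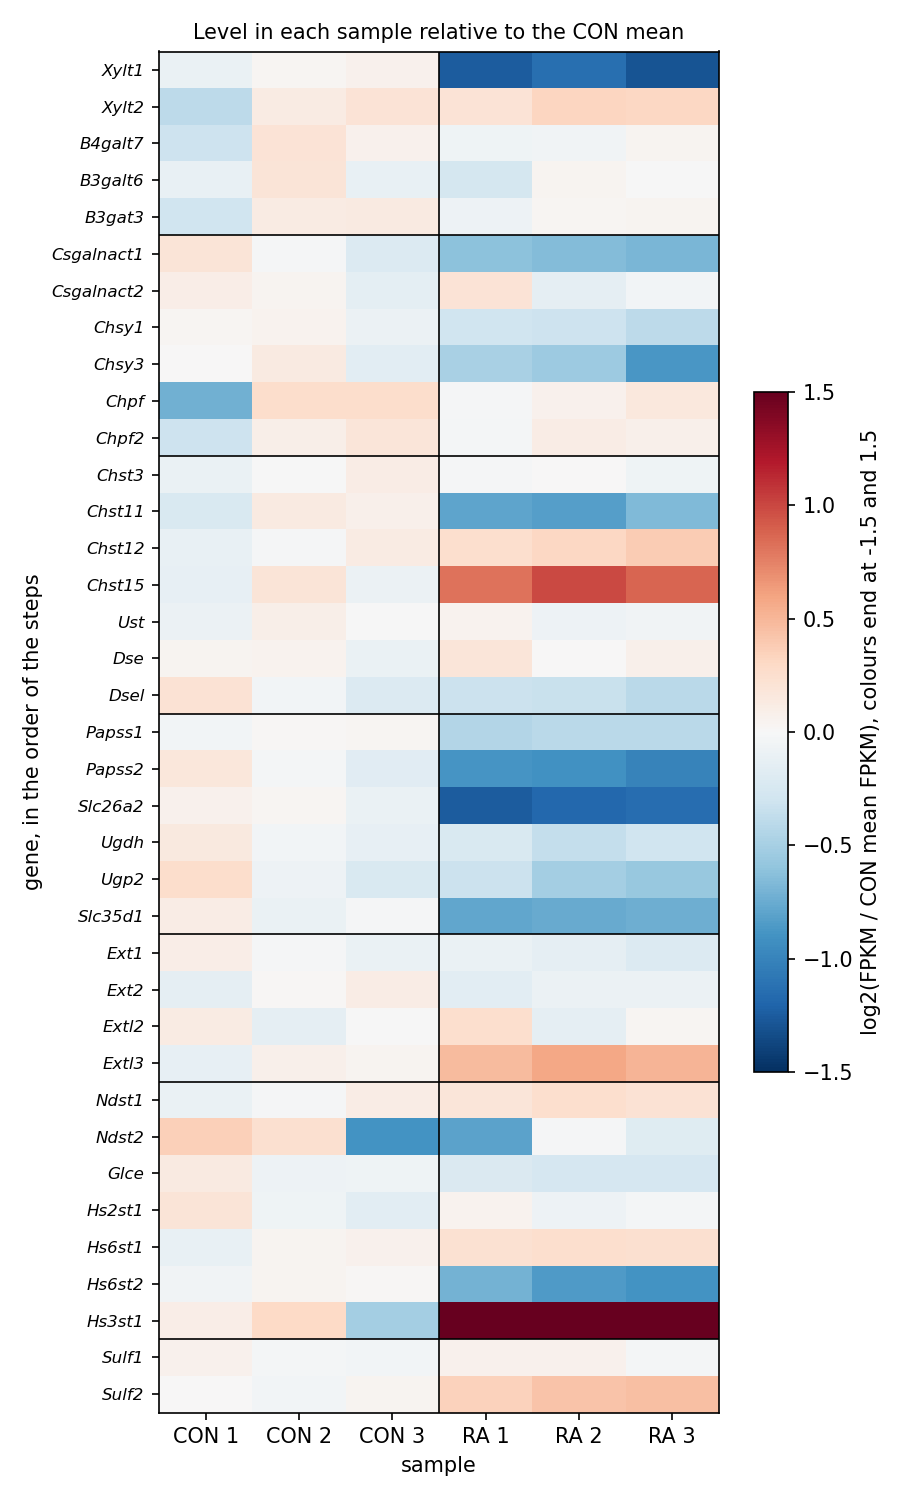
Level of each tested gene in each sample as log2 of FPKM over the CON mean, with genes in the order of the steps and samples in columns. Slc26a2, Xylt1 and Papss2 are low in all 3 RA samples, and Chpf is low in CON sample 1.

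Of the 4 heparan chain synthesis genes, Extl3 alone passed the test, and it was higher in RA. Extl3 (ENSRNOG00000013581) encodes the enzyme that adds the N-acetylglucosamine that commits a linker to heparan sulfate. It was at 30.2, 34.7 and 34 FPKM in CON and at 45.6, 49.3 and 46.9 FPKM in RA, giving a log2 fold change of 0.51 with a standard error of 0.074 (adjusted p = 0.00375). The polymerase genes Ext1 and Ext2, known from multiple exostoses, had log2 fold changes of -0.16 (95% interval -0.31 to -0.00) and -0.12 (-0.30 to 0.05). Ext1 was at 16 to 18.3 FPKM in CON and 14.8 to 15.9 in RA, and Ext2 at 75 to 89 in CON and 74.1 to 77.9 in RA. Ext2 passed without CON sample 1 (adjusted p = 0.0295, range over all alternatives 0.0295 to 0.641). Extl2, a related transferase, had a log2 fold change of 0.04 (95% interval -0.22 to 0.30). Thus Csgalnact1 and Extl3, whose enzymes add the sugar that assigns a chain to chondroitin or to heparan, had differences of opposite sign.

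Among the 7 heparan modification genes, Hs6st2 was lower and Hs3st1 higher in RA. Hs6st2 (ENSRNOG00000030880), a 6-O-sulfotransferase, was at 31.3, 33.3 and 32.8 FPKM in CON and at 19.9, 18.1 and 17.4 FPKM in RA, giving a log2 fold change of -0.83 with a standard error of 0.0709 (adjusted p = 2.37e-04). Its paralog Hs6st1 was at 21, 23.2 and 23.8 FPKM in CON and at 26.6, 27 and 26.7 FPKM in RA, a log2 fold change of 0.23 (95% interval 0.07 to 0.39, adjusted p = 0.0806). Hs6st2 was the more abundant form in each CON sample and Hs6st1 in each RA sample. Hs6st2 made up 58.9 ± 0.943% of the summed FPKM of the pair in CON against 40.8 ± 1.76% in the RA group (SD, n = 3 each).

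Hs3st1 (ENSRNOG00000010598), a 3-O-sulfotransferase known for forming the antithrombin binding site of heparin, had the largest change of all 37 genes but a low level. It had 16, 18 and 13 reads in CON and 85, 87 and 77 in RA, or 0.202, 0.231 and 0.132 FPKM in CON and 1.11, 1.15 and 0.963 FPKM in RA. The log2 fold change was 2.50, with a standard error of 0.256 (adjusted p = 5.97e-04), or 5.67 times the CON level. On the log2(FPKM + 1) scale, which understates the change of low genes, it was 0.80 and also passed the test. The other modification genes did not pass, although Glce did with DESeq2, with the replicate block and without CON sample 1, Hs6st1 with DESeq2 and without CON sample 1, and Ndst1 without CON sample 3. Adjusted p over all alternatives ran from 0.0197 to 0.22 for Glce, from 0.036 to 0.253 for Hs6st1 and from 0.0443 to 0.379 for Ndst1. The N-deacetylase and N-sulfotransferase gene Ndst1 had a log2 fold change of 0.20 (95% interval 0.03 to 0.38), the epimerase gene Glce of -0.25 (-0.41 to -0.09, adjusted p = 0.0613) and the 2-O-sulfotransferase gene Hs2st1 of -0.03 (-0.24 to 0.18). Ndst2 had between 10 and 23 reads per sample, and a fold change could not be resolved at this depth (95% interval -1.24 to 0.67).

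The endosulfatases remove 6-O-sulfate from finished heparan chains outside the cell. Sulf2 (ENSRNOG00000006052), the most abundant of the 38 genes, was at 105, 102 and 107 FPKM in CON and at 133, 141 and 144 FPKM in RA, giving a log2 fold change of 0.40 with a standard error of 0.058 (adjusted p = 0.00375). Sulf1 was at 22.2, 20.7 and 20.5 FPKM in CON and at 22, 22.1 and 20.8 FPKM in RA, with overlapping groups and a log2 fold change of 0.02 (95% interval -0.12 to 0.16). Sulf1 thus made up 16.8 ± 0.739% of the pair in CON against 13.5 ± 0.779% in the RA group (SD, n = 3 each).

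Across the 10 paralog pairs, the share of the pair's FPKM taken by the first-named gene did not overlap between CON and RA in 8 and overlapped in 2 (Chst3 with Chst7, and Ndst1 with Ndst2). The difference, RA minus CON, was -23.4 percentage points for Xylt1, -18.1 for Hs6st2, -17.7 for Chst11, -10.1 for Csgalnact1, -8.78 for Papss2 and -3.33 for Sulf1. It was 3.73 points for Dse and 1.59 for Chsy1. These shares are values without a test, and none were computed over other gene pairs to set the count against. For single genes, 32.2% of all genes tested had groups that did not overlap. In Xylt, Csgalnact, Chst11 with Chst12 and Hs6st, the gene that passed was lower, and the log2 fold change of its paralog was 0.00 or above. Both genes of the Papss and Chsy pairs passed as lower. Sulf2 passed as higher, and in the remaining pairs neither gene passed.

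**Figure D4:**
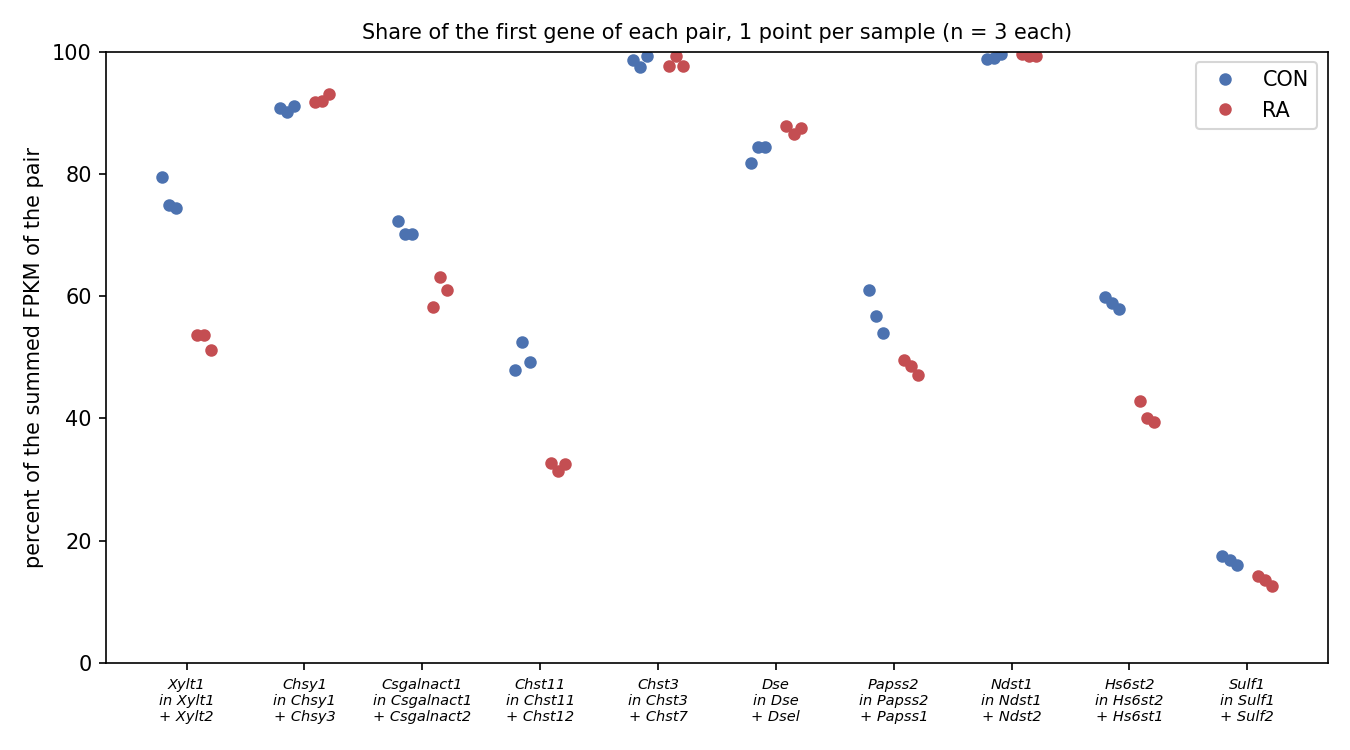
Share of the first-named gene in the summed FPKM of each of 10 paralog pairs (y axis, percent), with 1 point per sample. The Hs6st2 share lies at 58 to 59.9% in CON and at 39.5 to 42.8% in RA, and the Xylt1 share at 74.4 to 79.5% and 51.1 to 53.7%.

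Further genes of glycosaminoglycan assembly, not among the 38, passed in both directions. Of 17 such genes, 15 were in the tables, 9 were tested and 5 passed, against 9.82% of all genes. Lower in RA were 3 and higher 2. Extl1, a relative of the exostosin genes, was at 13.5, 18.9 and 16.7 FPKM in CON and at 7.92, 9.05 and 9.96 FPKM in RA, a log2 fold change of -0.88 (adjusted p = 0.00456). Ndst3, a further heparan N-deacetylase and N-sulfotransferase, was at 2.31, 1.37 and 1.55 FPKM in CON and at 4.09, 4.04 and 4.29 FPKM in RA, a log2 fold change of 1.23 (adjusted p = 0.00456). Chst10, which makes the HNK-1 epitope, had a log2 fold change of -0.94 (adjusted p = 0.00298). Hs3st3b1, a 3-O-sulfotransferase gene named after its values were seen, lay at 0.963, 1.35 and 1.26 FPKM in CON and at 0.649, 0.719 and 0.571 FPKM in RA. It was lower (log2 fold change -0.90, adjusted p = 0.0197), in the direction opposite to Hs3st1, but among the fits that left out a sample it passed only without CON sample 1. In the other 5 the Hs3st3b1 difference lay between -0.98 and -0.81, with adjusted p from 0.0525 to 0.0912. Pxylp1, the phosphatase that removes phosphate from the xylose of the linker, had 0.27 (adjusted p = 0.0462) and passed in only 1 of the 6 fits that left out a sample, that without CON sample 1. In the other 5 it lay between 0.25 and 0.29. Pxylp1 was also lost with no filter on low counts and in the limma fit on log2(FPKM + 1).

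Of 19 further genes of precursor supply and PAPS recycling, all tested, 2 passed and both were lower in RA. Both encode the enzyme that opens the hexosamine pathway, which leads to the amino sugars of the chains. Gfpt2 was at 26, 25.5 and 24.5 FPKM in CON and at 13.5, 15 and 14.5 FPKM in RA, a log2 fold change of -0.84 (adjusted p = 1.78e-04). Gfpt1 had a log2 fold change of -0.27 (adjusted p = 0.0301), and passed only without CON sample 1 (-0.22) or 3 (-0.30) among the fits that left out a sample. Gfpt1 was also lost in the 3 limma fits. In this list 10.5% of the genes passed, close to the 9.82% of all genes, whereas all 6 of the supply genes described above did. Uxs1, which makes UDP-xylose, and Slc35b2, a PAPS transporter of the Golgi, had log2 fold changes of -0.05 and 0.08 and did not pass; both were named after their values were seen. Of 12 keratan sulfate genes, all tested, 2 passed, both higher in RA, where 5.31% of all genes were called higher. Chst2, a 6-O-sulfotransferase of N-acetylglucosamine, was at 13.1, 18.8 and 17.5 FPKM in CON and at 28.4, 28.9 and 28.3 FPKM in RA, a log2 fold change of 0.78 (adjusted p = 0.00577). The sialyltransferase gene St3gal1 had 0.78 (adjusted p = 2.13e-04).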

How the data were processed

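Poly(A) RNA-seq libraries of 3 CON and 3 RA samples of rat chondrocytes were analysed, grouped by the sample titles. The authors deposited whole-number read counts per gene without normalization and FPKM values for 18923 genes. The FPKM values follow from count, gene length and the sample's total count. The submitters' processing notes name HISAT2, HTSeq 0.13.5 and Rnor_6.0; annotation release, strand setting and filters are not given in the sources used here, so overlapping genes are uncertain.

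Counts were fitted with edgeR 4.0.16 in R 4.3.3 (TMM, quasi-likelihood test, no covariates). The filterByExpr step (minimum count 10) left 13438 genes, over which p-values were adjusted by Benjamini-Hochberg. Standard errors were derived from the F statistic. FPKM gave levels and paralog shares. Where 158 identifiers shared symbols, the one with the highest mean count was used. Bpnt2 and Hspg2 were matched through RefSeq synonyms. The code was tested on simulated data. An observed 0 leaves room for 3 reads, which equals 0.0789 to 0.102 CPM and covers counting error only.

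Alternatives were RLE or total-count scaling, no filter, at least 1 FPKM in 3 samples, DESeq2 1.42.0, limma 3.58.1 on log2(FPKM + 0.1, 1 or 0.01), a replicate block, and each sample left out. The 38 genes, the related lists and the markers were chosen with earlier results of these data known. All 38 genes could be named, and from each related list up to 4 genes that passed, with a mean of at least 1 FPKM, by size of change. Promoter sequences are from RefSeq (GRCr8).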

Additional observations from a re-analysis of the deposited data

How the results depend on the processing

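Over 9 changes of scaling, filter, tool or block, the number of the 38 genes that passed ranged from 15 to 20 and the number of DEGs was 9 or 10. With 1 sample left out they were 12 to 21 and 9 to 10, with 8 to 15 genes lower and 4 to 6 higher in RA. Of the 16 genes, 12 passed in every alternative that tested them. Ugdh and Ugp2 were lost in 4 of the 9 changes, the 3 limma fits and total-count scaling. With at least 1 FPKM in 3 samples, 1 gene was a DEG higher in RA, since Hs3st1 was then not tested. Deviations from the group means correlated at 0.093, -0.012 and 0.012 between samples of the same number, and at -0.122 to 0.110 between the others. With 3 samples per group, these values cannot decide whether replicate numbers pair the samples. With the replicate block 18 of the 38 genes passed, and 1595 of all genes against 1319 in the main fit.

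The median log2 fold change was -0.03, -0.03 and -0.02 in limma fits with pseudocounts 0.01, 0.1 and 1, and -0.13 (without CON sample 1) to -0.05 with 1 sample left out. The count of related genes that passed, 18 of 72, ran from 9 to 29, the latter without CON sample 1. It was 9 without CON sample 2 or without any of the RA samples. No gene that passed changed sign. Among the others, B3gat3 was at 0.01 in all 3 limma fits. With 1 sample left out, B3gat3 ran from -0.15 to 0.07, B4galt7 from -0.18 to 0.06, B3galt6 from -0.15 to 0.02, Csgalnact2 from -0.09 to 0.07, Chpf from -0.20 to 0.22, Chpf2 from -0.10 to 0.15, Chst3 from -0.09 to 0.03, Extl2 from -0.06 to 0.13 and Hs2st1 from -0.09 to 0.08. The causes were not tested. Reads were few for Chst7 (3 to 10 per sample), Ndst2 (10 to 23) and, in CON, Hs3st1 (13 to 18).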

Other observations

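The core proteins that carry the chains were also measured. Of 7 chondroitin sulfate core proteins, all tested, 4 passed and all 4 were lower in RA, where 4.50% of all genes were called lower. Acan, the gene of aggrecan, was at 642, 728 and 783 FPKM in CON and at 233, 262 and 269 FPKM in RA, a log2 fold change of -1.51 by edgeR (adjusted p = 4.78e-05). Epyc, a small leucine-rich proteoglycan of growth plate cartilage, was at 30.7, 25.7 and 20.5 FPKM in CON and at 8.57, 7.65 and 6.84 FPKM in RA, a log2 fold change of -1.75 (adjusted p = 2.24e-04). Cspg4, a membrane proteoglycan, had -0.65 (adjusted p = 0.0416) and Dcn, the gene of decorin, -0.41 (adjusted p = 0.0378). Cspg4 passed only without CON sample 1 (-0.83) among the fits that left out a sample, and Dcn only without CON sample 1 or 3. Cspg4 was also lost in the 3 limma fits, and Dcn in the limma fit on log2(FPKM + 1). Bgn, the gene of biglycan and the most abundant of the 7, had -0.08 and was named after its values were seen.

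Of 12 heparan sulfate core proteins, 10 were tested and 3 passed, against 9.82% of all genes. The glypican genes Gpc3 and Gpc6 were lower in RA, with log2 fold changes of -0.66 and -0.44, and the syndecan gene Sdc1 was higher, with 0.31. Gpc6 and Sdc1 no longer passed without CON sample 2 or any of the RA samples.

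Genes of lysosomal breakdown showed little change. Of 17, 15 were tested and 2 passed, or 13.3%, against 9.82% of all genes. Both were lower in RA: Hpse, the heparanase gene, at 5.93, 7.36 and 6.28 FPKM in CON and 4.27, 4.11 and 4.46 FPKM in RA, a log2 fold change of -0.62 (adjusted p = 0.014), and Hyal1, a hyaluronidase gene, at -0.38 (adjusted p = 0.0212). Both calls were lost without CON sample 2 or any of the RA samples.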
